A study of Homo sapiens with 6 samples.

Results

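The genes described here encode the MRPL and MRPS proteins of the mitochondrial ribosome. They were taken as every entry of the deposited count table whose symbol is MRPL or MRPS followed by a number and at most 1 letter, which gave 77 of 26485 entries. Their RNA was measured in REH, an established human cell line from B-precursor acute lymphoblastic leukaemia that carries the ETV6-RUNX1 fusion, by sequencing 3 libraries of DMSO-treated (solvent only) and 3 of ML141-treated cells (25 µM), all after 24 h. ML141 blocks CDC42, a small GTPase that organises the actin cytoskeleton and cell polarity, and the comparison asks which transcripts differ after that inhibition. All 6 libraries come from the same line, grown in the same medium, with no genetic change between the groups. The labels speak of independent experiments, so the spread below is that between 3 experiments on 1 cell line at 1 dose and 1 time.

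The mitochondrial ribosome reads the few messages that mitochondrial DNA encodes, all of which specify core subunits of the respiratory chain and ATP synthase. Its RNA comes from mitochondrial DNA, whereas all of its proteins come from nuclear genes and are imported. Many of these proteins have a counterpart in bacterial ribosomes, and others occur only in mitochondria. Some of the latter take the place of RNA segments lost from the ribosome or anchor it to the inner membrane. The mitochondrially encoded messages and ribosomal RNAs were not analysed here.

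Promoters of such genes are known for sites of the activators NRF1, the ETS family factor GABP and YY1. RefSeq promoter windows (GRCh38.p14; 250 bases before to 50 after a transcript start, 300 bases in all) matched 68 of the 77 genes in 84 windows. The genes with no window were MRPL10, MRPL13, MRPL15, MRPL2, MRPL21, MRPL23, MRPL35, MRPS28 and MRPS36. Both strands were searched for the letters GCGCANGCG (NRF1), CCGGAAG (ETS), AAGATGGC (YY1) and CACGTG (E-box, the site of MYC and MAX); the ETS and YY1 letters can overlap by the bases AAG, and the NRF1 letters can match both strands at neighbouring positions. The 120-base stretches printed here end where the RefSeq or the GENCODE transcript begins, whichever lies further upstream, and run 5′ to 3′ on the gene's strand, with motif matches in capitals. They were picked after the values were known to set a gene that fell beside one that did not pass the test: MRPL17 (chr11:6683402-6683521, minus strand; fell) and MRPL57 (chr13:21176525-21176644, plus strand; not past the test) for NRF1, MRPS34 (chr16:1773156-1773275, minus strand; fell) and MRPS10 (chr6:42217866-42217985, minus strand; not past the test) for ETS. MRPL52 (chr14:22829759-22829878, plus strand) shows a pair of YY1 matches; it fell, a call that most alternatives did not keep.
MRPL17: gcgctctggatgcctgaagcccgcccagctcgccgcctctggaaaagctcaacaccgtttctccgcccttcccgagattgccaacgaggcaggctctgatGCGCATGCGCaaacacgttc
MRPL57: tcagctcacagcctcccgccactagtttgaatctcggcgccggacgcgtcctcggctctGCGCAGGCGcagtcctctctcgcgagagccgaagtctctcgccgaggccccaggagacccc
MRPS34: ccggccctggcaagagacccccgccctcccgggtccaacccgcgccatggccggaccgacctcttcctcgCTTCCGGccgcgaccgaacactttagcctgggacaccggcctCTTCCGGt
MRPS10: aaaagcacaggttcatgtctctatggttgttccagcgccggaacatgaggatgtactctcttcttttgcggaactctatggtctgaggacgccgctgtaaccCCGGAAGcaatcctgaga
MRPL52: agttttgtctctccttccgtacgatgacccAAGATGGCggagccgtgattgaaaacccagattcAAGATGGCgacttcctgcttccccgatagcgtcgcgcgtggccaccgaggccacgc

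NRF1 letters were found in 17.9% of the 84 windows and in 13.4% of the 12660 windows of all tested genes. The shares were 38.1% and 17.6% for the ETS letters, 27.4% and 5.17% for the YY1 letters, and 10.7% and 9.37% for the E-box. Most of the mitoribosomal windows with YY1 letters had them after the transcript start, as in MRPS7, where they begin at base 19. The printed MRPL52 pair differs, beginning at -98 and -64 from the RefSeq start. A match is a description of the letters and not of binding. Among the tested mitoribosomal genes with a window, 6 of 14 fell with NRF1 letters and 31 of 52 without. The counts were 15 of 29 with ETS letters and 22 of 37 without, 10 of 19 with YY1 letters and 27 of 47 without, and 4 of 9 with an E-box and 33 of 57 without. The median log2 fold changes were -0.26 with and -0.32 without NRF1 letters, -0.29 with and -0.36 without ETS letters, -0.29 with and -0.31 without YY1 letters, and -0.29 with and -0.32 without an E-box. These differences between promoter classes were not tested.

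Total counts were 8284299 to 12308039 per library, so that 1 count stood for 0.0754 to 0.130 CPM (reads scaled to library size with TMM factors). A count of 0 allows a level of up to 3 counts, or 0.226 to 0.389 CPM, for counting error alone. The cells carried precursor B markers at high levels: 13 of 14 passed the low-count filter, with RAG1, the recombinase of antigen receptor genes, at 1768 ± 112 CPM (SD, n = 3) and DNTT, the template-free polymerase, at 2407 ± 87.1 CPM with DMSO, although VPREB1, a surrogate light chain gene, had no count in any DMSO library. Of 19 markers of other blood, stromal and epithelial cells 5 passed the filter. Their summed level was 52.3 to 53.2 CPM with DMSO and 36.8 to 40.2 CPM with ML141, most of it MPO, a myeloid granule enzyme, and CD3D, EPCAM, GATA1, HBA1, HBB and PPBP were at 0 in all 6 libraries. MPO fell with ML141 by 0.66 on the log2 scale and ALB, the liver albumin gene, rose by 2.39, from a mean of 0.243 to 1.37 CPM. Of the precursor B markers 8 rose and 1 fell, with a summed level of 6857 to 7490 CPM with DMSO and 9059 to 9332 CPM with ML141. The part of these shifts in the results was not tested. In bulk RNA, fewer cells of a type and less RNA per cell cannot be told apart.

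After ML141 the RNA of most mitoribosomal proteins was modestly lower. Of 75 genes that passed the filter, 41 fell, 1 rose (MRPL10) and 33 did not pass the test (edgeR quasi-likelihood test, Benjamini-Hochberg adjusted over 11454 genes, threshold 0.05). Among all genes tested 27.7% fell and 26.7% rose, against 54.7% and 1.33% of the mitoribosomal genes. Their median log2 fold change was -0.30, with values from -0.92 to 0.29, and that of all genes was 0.02. The median level over the 75 genes was 51.1 CPM with DMSO and 41.1 CPM with ML141. The ML141 libraries did not overlap the DMSO libraries for 44 of them, 41 lower and 3 higher. That total is near the share of all tested genes, of which 61.2% had groups that did not overlap in either direction. The share of all genes by direction was not counted. The falls were shallow: 14 of the 41 exceeded 1.5-fold as estimates, a share that was not counted for all genes. Only 3 passed a test against a fold change of 1.5 (edgeR glmTreat), which 8.71% of all genes passed in the lower direction.

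The number of calls depended on how the libraries were scaled. With library totals in place of TMM factors, all genes shifted up by 0.17 in median log2 fold change, and 27 of the 75 fell while MRPL10, MRPL2, MRPL45 and MRPS10 rose, with 20.1% of all genes lower. With upper-quartile factors the shift was 0.10, and 30 fell and 2 rose, with 22.8% of all genes lower. Relative to the median of all genes, the median of the mitoribosomal genes lay at -0.32 under each of these 3 scalings. A change of scaling moves all genes by about the same amount, so this value could hardly differ between them. It was -0.26 with GC and length offsets, -0.39 without replicate 1 of both groups and -0.27 without replicate 2 of both. Counts with 1 replicate number left out of both groups were 47 without replicate 1, 28 without replicate 2 and 24 without replicate 3. The share of all genes called lower moved in the same order, at 28.96%, 22.58% and 19.56% in these fits. By the authors' deposited table, 38 of 75 were lower at an adjusted p under 0.05 and 0 were higher. The share of all genes in that comparison was not counted.

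**Figure D1:**
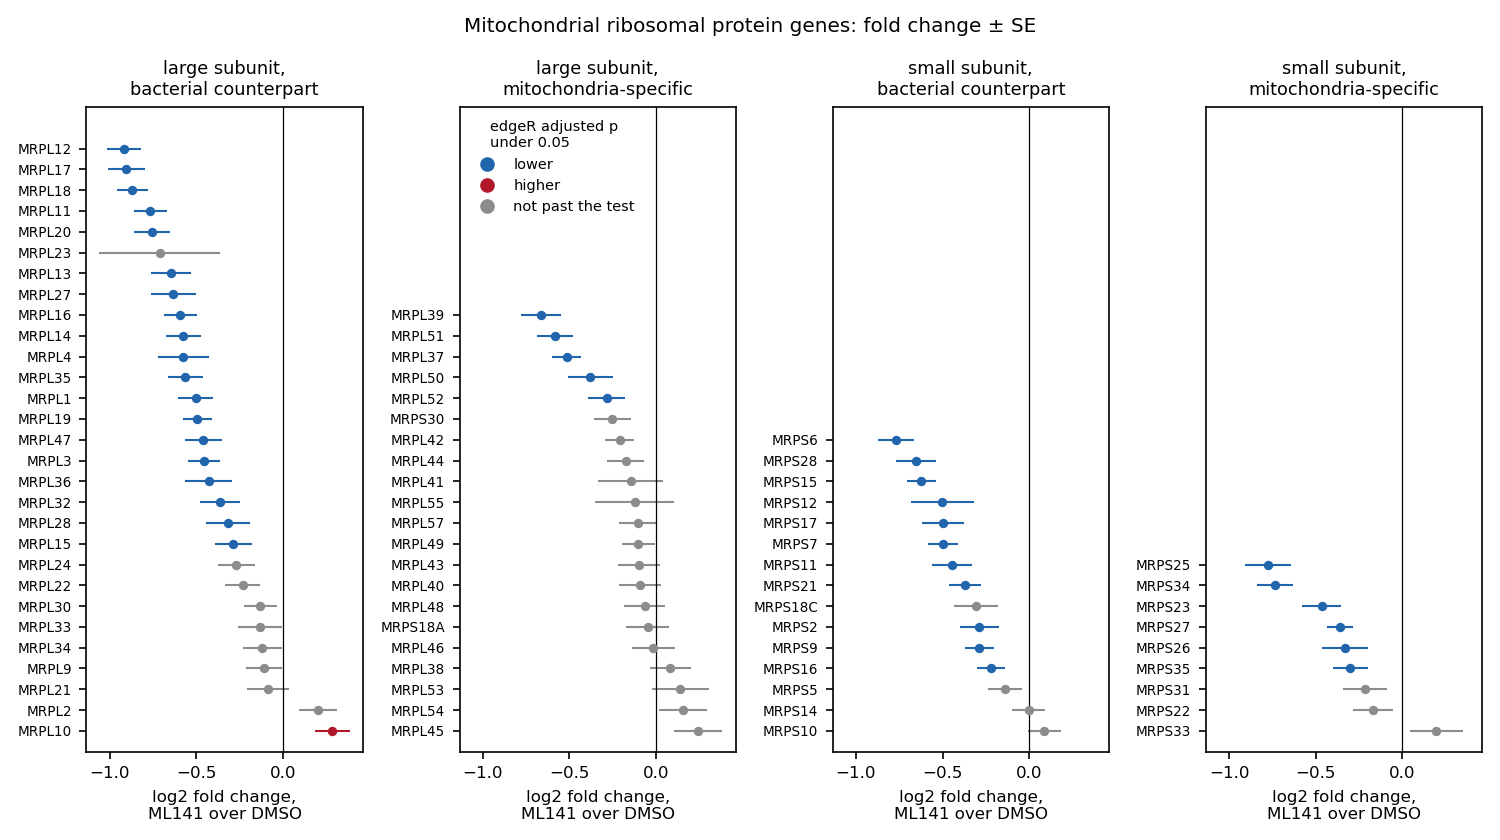
Log2 fold change (ML141 over DMSO, x axis) ± SE from edgeR for the tested genes of each role group, 1 gene per line, coloured by call at an adjusted p under 0.05. The falls reach -0.92 in the large subunit and -0.78 in the small subunit, and MRPL10 is the only gene called higher; MRPS36 is not drawn.

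The levels themselves spanned a wide range. Per kilobase of merged exon, the 75 genes ran from 1.75 (MRPL23) to 136 (MRPL3) CPM per kb with DMSO, with a median of 31.4, and from 1.09 to 99.3 with ML141, with a median of 24.7. The highest mean levels over both groups belonged to MRPL3, a protein near the peptidyl transferase centre, at 136 ± 4.42 CPM per kb (SD, n = 3) with DMSO, MRPS15, at 104 ± 4.51, and MRPL15, at 89.5 ± 3.71. The standard deviation of log2 CPM per kb among the genes was 1.29 with DMSO and 1.22 with ML141. MRPL3 itself was at 252, 246 and 237 CPM in the 3 DMSO libraries and 200.1, 159 and 177 CPM in the 3 ML141 libraries, a log2 difference of -0.45 ± 0.0909 (SE; edgeR adjusted p = 0.00121).

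Among the 29 large-subunit proteins with a bacterial counterpart, all tested, 19 fell (65.5%, against 27.7% of all genes) and MRPL10 rose. The median log2 fold change was -0.46. MRPL12, which forms the flexible stalk that recruits translation factors, was at 70.4, 79.0 and 83.8 CPM with DMSO and at 39.6, 42.7 and 41.0 CPM with ML141. Every ML141 library lay below every DMSO library, and the log2 fold change was -0.92 ± 0.0978 (SE; edgeR adjusted p = 1.14e-05). MRPL12 (chr17:81703357-81707526, plus strand; positions here are GENCODE release 29 on hg38) shares 68.2% of its exon bases with AC139530.2, a protein-coding gene on the same strand that has no entry of its own in the table, so reads of the pair cannot be told apart.

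MRPL18, a protein of the central protuberance, had 88.7, 92.4 and 86.4 CPM with DMSO and 45.7, 48.3 and 52.4 CPM with ML141. This fall of 0.87 ± 0.0909 on the log2 scale had the smallest p of all the mitoribosomal genes (edgeR adjusted p = 1.00e-05), and its exons (chr6:159789812-159798436, plus strand) overlap no other gene. MRPL17, which lies near the exit of the peptide tunnel and whose promoter stretch is shown above, had 46.7, 47.8 and 54.7 CPM with DMSO and 27.4, 26.1 and 26.3 CPM with ML141 (chr11:6680782-6683401, minus strand). Its ML141 libraries lay close together, and the log2 fold change was -0.90 ± 0.105 (edgeR adjusted p = 2.20e-05). MRPL11, at the base of the stalk, went from 71.7, 82.2 and 83.0 CPM to 44.9, 46.8 and 47.8 CPM, a log2 fold change of -0.77 ± 0.0946 (edgeR adjusted p = 3.65e-05; chr11:66435075-66466738, minus strand). MRPL12, MRPL17 and MRPL18 were the 3 genes that passed the test against 1.5-fold.

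The single gene that rose is a direct partner of MRPL12. MRPL10 anchors the MRPL12 stalk to the ribosome (chr17:47823272-47831534, minus strand). It was at 31.8, 33.4 and 33.3 CPM with DMSO and at 40.3, 42.5 and 37.2 CPM with ML141, groups that did not overlap, with a log2 fold change of 0.29 ± 0.102 (edgeR adjusted p = 0.0314). The count of MRPL12 over that of MRPL10 within a library, which needs no scaling between libraries, was 2.22, 2.37 and 2.52 with DMSO and 0.984, 1.01 and 1.10 with ML141, a mean log2 difference of -1.20. The pair was chosen after its values were seen, so this ratio is given as a description with no test. The rise of MRPL10 was a weak call: its adjusted p was 0.0898, 0.0863 and 0.0774 without DMSO replicate 1, 2 or 3 and 0.0707 without ML141 replicate 2, with log2 fold changes of 0.26, 0.29, 0.29 and 0.24.

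Of the 9 others in the group that did not pass the test, MRPL2, a protein next to the peptidyl transferase centre, had the highest estimate at 0.20 ± 0.111 (edgeR adjusted p = 0.140). MRPL23, at the exit of the peptide tunnel, had the lowest at -0.71 ± 0.350 (edgeR adjusted p = 0.104). MRPL23 rested on 13, 24 and 47 counts with DMSO and 15, 28 and 22 with ML141, the lowest level of the 75 genes, and its groups overlapped.

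**Figure D2:**
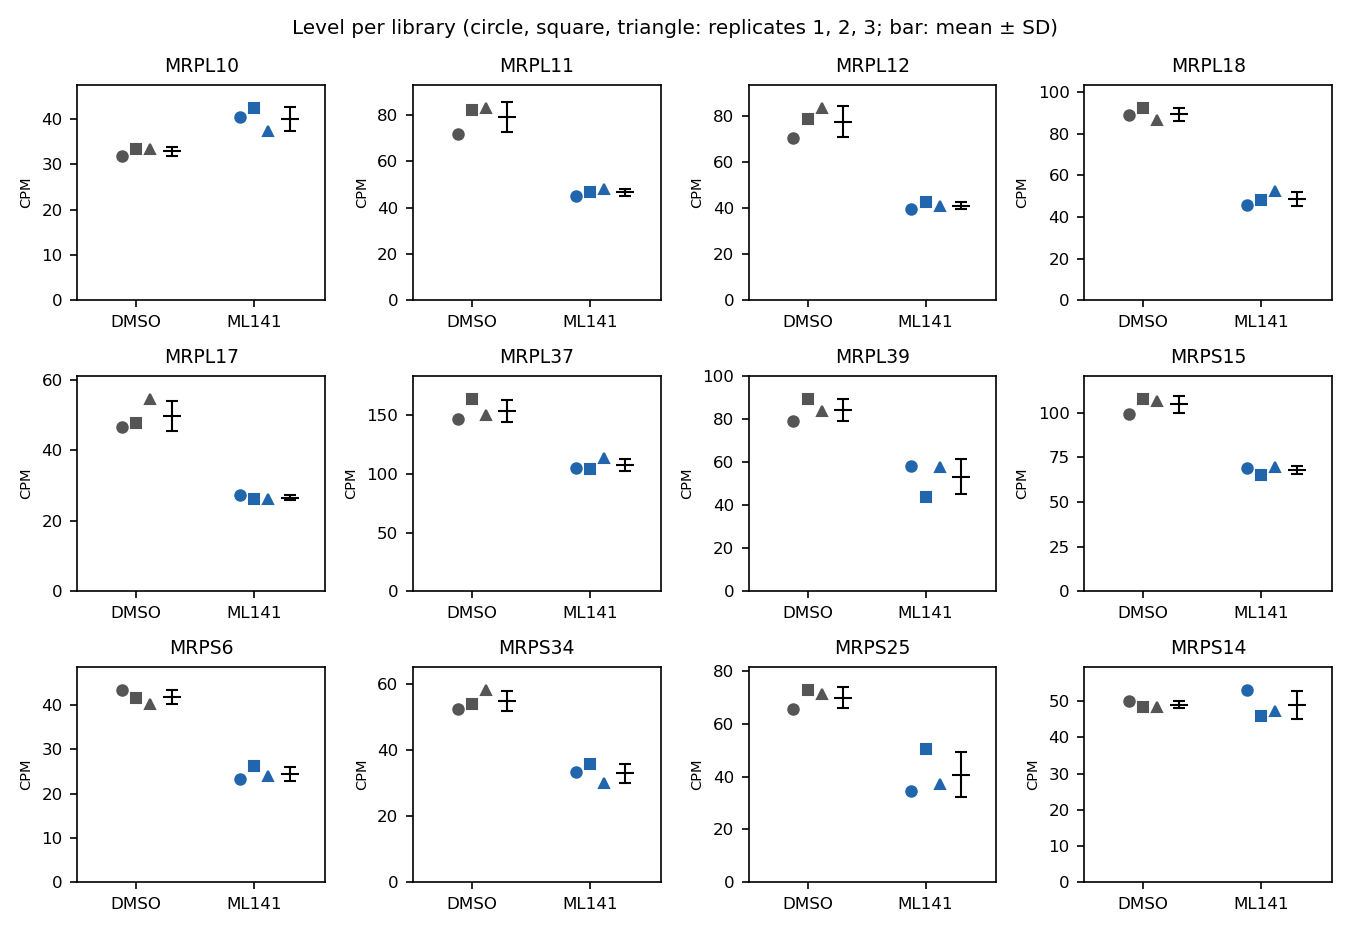
Level of 12 genes in each library (y axis, CPM from 0; symbols are replicates 1 to 3, bars the mean ± SD of 3 libraries). In 10 panels every ML141 library lies below every DMSO library, MRPL10 shows the opposite order, and MRPS14 overlaps.

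Of the 21 large-subunit proteins found only in mitochondria 5 fell (23.8%, near the 27.7% of all genes), 0 rose, and the median log2 fold change was -0.11. MRPL37 was at 147, 164 and 150.4 CPM with DMSO and 105, 105 and 113 CPM with ML141, a log2 fold change of -0.52 ± 0.0823 (edgeR adjusted p = 0.000248; chr1:54184041-54225464, plus strand). MRPL39 was at 79.5, 89.6 and 84.1 CPM with DMSO and 58.4, 44.1 and 57.8 CPM with ML141, a log2 fold change of -0.66 ± 0.116 (edgeR adjusted p = 0.000482). In both genes all 3 ML141 libraries were lower than any DMSO library. MRPL51 fell by 0.58 on the log2 scale (SE 0.103; edgeR adjusted p = 0.000526), but 29.9% of its exon bases lie opposite NCAPD2, a condensin subunit gene whose log2 fold change was -0.56, and counts from a kit that does not mark strand can mix the pair. MRPL50 fell by 0.38 (SE 0.130; edgeR adjusted p = 0.0264), and MRPL52 by 0.29 (SE 0.108; edgeR adjusted p = 0.0403). The call for MRPL52 was lost with library totals and upper-quartile factors (log2 fold changes of -0.11 and -0.18), with the DESeq2 Wald test (adjusted p = 0.0575), with GC and length offsets, with either change of the filter, and when any 1 library other than DMSO replicate 1 was left out (edgeR adjusted p = 0.0517 to 0.179). The call for MRPL50 was lost with upper-quartile factors and library totals (edgeR adjusted p = 0.0674 and 0.166). It was also lost without DMSO replicate 1 or 2 or ML141 replicate 2 or 3 (edgeR adjusted p = 0.0973, 0.0772, 0.0744 and 0.0623). The log2 fold changes without these libraries were -0.32, -0.38, -0.26 and -0.40. Without replicate 2 or 3 of both groups the edgeR adjusted p of MRPL50 was 0.182 and 0.0794. The number of the 21 that fell was 3 with library totals and with upper-quartile factors. It was also 3 without DMSO replicate 2, ML141 replicate 2 or ML141 replicate 3, and without replicate 2 or 3 of both groups.

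The other 16 mitochondria-specific large-subunit genes had estimates from -0.25 (MRPS30) to 0.24 (MRPL45). MRPS30 and MRPS18A carry small-subunit names but are built into the large subunit. MRPL45, which holds the ribosome at the inner membrane, was at 11.8, 10.6 and 11.4 CPM with DMSO and 14.1, 12.8 and 13.0 CPM with ML141. Its groups did not overlap, yet the difference did not pass the test (log2 fold change 0.24 ± 0.138; edgeR adjusted p = 0.158). MRPL46, a protein of the central protuberance, had an estimate of -0.02 with a 95% interval of -0.29 to 0.25.

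In the small subunit 17 of 24 tested genes fell (70.8%, against 27.7% of all genes) and 0 rose. Of its 15 tested proteins with a bacterial counterpart, 11 fell (73.3%, median log2 fold change -0.37). That count was 5 with library totals, 7 with upper-quartile factors, 7 without replicate 2 of both groups and 5 without replicate 3 of both. MRPS15, which binds early in the assembly of the subunit, was at 99.4, 108 and 107 CPM with DMSO and 68.8, 65.4 and 69.6 CPM with ML141 (chr1:36455718-36464437, minus strand). All ML141 libraries lay under the lowest DMSO library, and the log2 fold change was -0.62 ± 0.0835 (edgeR adjusted p = 6.71e-05). MRPS6 was at 43.4, 41.5 and 40.3 CPM with DMSO and 23.3, 26.2 and 24.0 CPM with ML141, the deepest fall of this group at -0.77 ± 0.104 (edgeR adjusted p = 7.37e-05). Of its exon bases 17.8% are shared on the same strand with SLC5A3, an inositol transporter gene that lies within MRPS6 and whose own log2 fold change was -0.98, and 29.7% with AP000317.2. MRPS28 fell by 0.65 (SE 0.113; edgeR adjusted p = 0.000463), with 42.0% of its exon bases shared on the same strand with AC036214.3, which has no entry in the table. MRPS7, a protein of the head that starts its assembly, was at 72.5, 71.3 and 72.9 CPM with DMSO and 52.3, 48.9 and 52.4 CPM with ML141, a log2 fold change of -0.50 ± 0.0869 (edgeR adjusted p = 0.000500). MRPS14, also of the head, had the flattest value of all: 50.05, 48.4 and 48.4 CPM with DMSO against 53.2, 45.9 and 47.4 CPM with ML141, a log2 fold change of -0.00 with a 95% interval of -0.22 to 0.21. MRPS10 had the highest estimate of the group, 0.09 ± 0.0949 (edgeR adjusted p = 0.463).

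Of the 9 tested small-subunit proteins found only in mitochondria 6 fell (66.7%, against 27.7% of all genes). Their median log2 fold change was -0.33, and 3 fell without replicate 2 of both groups or without replicate 3 of both. MRPS34 was at 52.4, 54.0 and 58.2 CPM with DMSO and 33.3, 35.7 and 29.9 CPM with ML141, a log2 fold change of -0.73 ± 0.105 (edgeR adjusted p = 0.000107; chr16:1771890-1773155, minus strand). MRPS25 was at 65.5, 72.9 and 71.2 CPM with DMSO and 34.6, 50.3 and 37.3 CPM with ML141, a log2 fold change of -0.78 ± 0.133 (edgeR adjusted p = 0.000430). Its ML141 replicate 2 stood above the other ML141 libraries and still below all DMSO libraries. NR2C2, which lies opposite 16.5% of the MRPS25 exon bases, had a log2 fold change of 0.16 that did not pass the test. MRPS27, a protein with RNA-binding pentatricopeptide repeats, was at 228, 233 and 219 CPM with DMSO and 171, 184 and 175 CPM with ML141, a log2 fold change of -0.36 ± 0.0746 (edgeR adjusted p = 0.00159). MRPS23 fell by 0.47 (SE 0.114; edgeR adjusted p = 0.00438). MRPS22, MRPS31 and MRPS33 did not pass the test, with MRPS33 the highest at 0.19 ± 0.153 (edgeR adjusted p = 0.300).

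**Figure D3:**
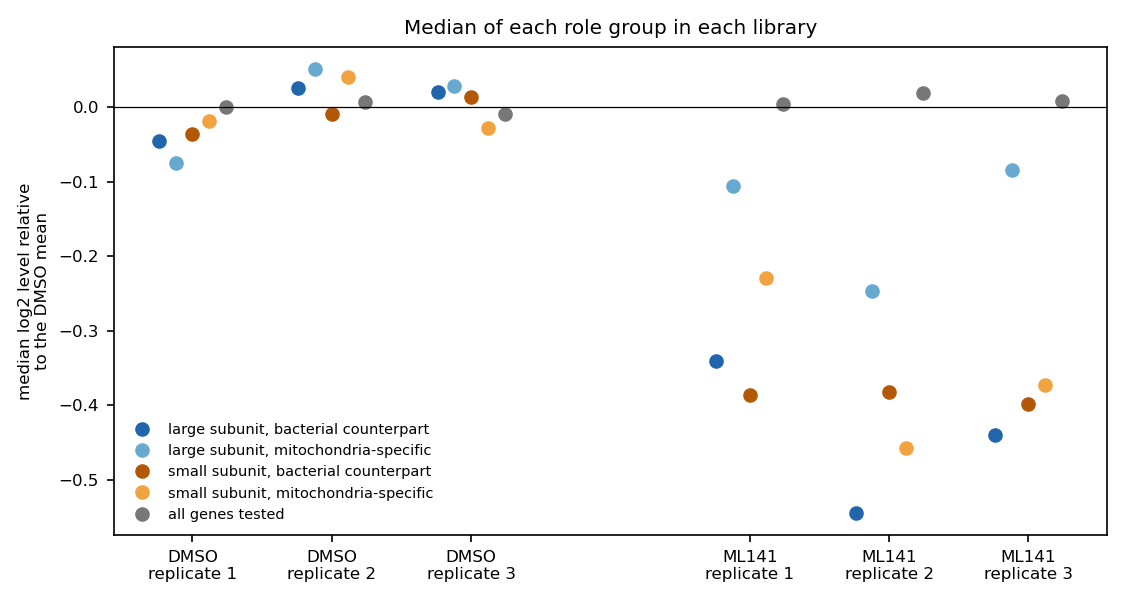
Median over the genes of each role group, and over all genes tested, of the log2 level in a library relative to the DMSO mean (y axis), by library. The median of all genes stays within 0.02 of 0, while that of the large-subunit genes with a bacterial counterpart is -0.34, -0.54 and -0.44 in ML141 replicates 1, 2 and 3.

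The shift was present in each ML141 library. Over the 75 genes the median log2 level relative to the DMSO mean was -0.05, 0.04 and 0.01 in the DMSO libraries and -0.23, -0.36 and -0.34 in the ML141 libraries, which did not overlap. For the large-subunit genes found only in mitochondria it was -0.11, -0.25 and -0.08 with ML141, and the lowest DMSO library was also at -0.08, so that ML141 replicate 3 was nearly level with DMSO replicate 1. With the subunits pooled, 30 of 44 tested genes with a bacterial counterpart fell (68.2%, median log2 fold change -0.45). Of 30 found only in mitochondria 11 fell (36.7%, median -0.17). The classes lay apart in the large subunit, where 65.5% and 23.8% fell (medians -0.46 and -0.11). In the small subunit they were close, with 73.3% and 66.7% (medians -0.37 and -0.33). MRPL55 was moved to the mitochondria-specific class after its value was known. These differences between the classes were not tested.

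Of the 33 genes with no call, 26 had estimates under 0 and 7 above. In 29 of them the 95% interval lay within 1.5-fold either way, and the exceptions were MRPL23, MRPL55, MRPS36 and MRPS18C. MRPS36, since found to belong to the α-ketoglutarate dehydrogenase complex rather than the ribosome, had a log2 fold change of -0.12 ± 0.234 (edgeR adjusted p = 0.692).

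A pair of genes failed the low-count filter. MRPS18B (chr6:30617709-30626395) had 0 counts in all 6 libraries. It lies in the major histocompatibility region, and 37 of 56 protein-coding genes within 1 Mb of it had no count either (66.1%), against 4808 of 17871 elsewhere (26.9%). MRPS24 (chr7:43866558-43869893) had 0, 1 and 4 counts with DMSO and 3, 5 and 3 with ML141. The read-through gene URGCP-MRPS24, which shares 77.0% of its exon bases on the same strand, had 0 counts in all libraries. A part of reference sequence or counting in these low values was not tested, and they are not read as absence of the transcript.

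Shared exons and pseudogene copies can also blur the counts of the tested genes. Of 23 tested genes with 10% or more of their exon bases shared with another gene, 14 fell, and of 52 with less, 27 fell and 1 rose, with medians of -0.32 and -0.29. GENCODE names 75 pseudogenes after 34 of the 77 genes, of which the table lists 3. Of 33 tested genes with such a pseudogene 15 fell, and of 42 with none 26 fell. Among all genes 27.7% fell, and these were not split by shared exons or pseudogenes. The differences between these classes were not tested.

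Proteins of the mitoribosome that carry other names also split into genes that fell and genes with no call. PTCD3, a pentatricopeptide protein at the entry of the messenger RNA channel, was at 178 ± 10.4 CPM with DMSO and 125 ± 2.82 CPM with ML141 (SD, n = 3), and fell by 0.51 on the log2 scale (edgeR adjusted p = 0.000193). CHCHD1 and GADD45GIP1 fell by 0.56 and 0.58. DAP3, a GTP-binding protein of the small subunit, AURKAIP1 and ICT1, a peptidyl-tRNA hydrolase built into the large subunit, had log2 fold changes of -0.04, -0.21 and 0.02 that did not pass the test. The median of these 6 was -0.36.

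Around the ribosome, the factors that run translation moved both ways. Of 18 tested factors of mitochondrial translation and its transfer RNAs, 6 fell (33.3%, against 27.7% of all genes) and 3 rose (16.7%, against 26.7%), with a median log2 fold change of -0.27. The elongation factors TUFM and GFM1 fell by 0.66 and 0.59 and the recycling factor MRRF by 0.54 (edgeR adjusted p = 6.55e-05, 0.000268 and 0.00179). The initiation factor MTIF2 rose by 0.40 and MTO1, which modifies mitochondrial transfer RNAs, by 0.34 (edgeR adjusted p = 0.00586 and 0.0176). TUFM was at 218, 239 and 243 CPM with DMSO and 133, 159 and 151 CPM with ML141, whereas MTIF2 was at 94.8, 99.7 and 93.7 CPM with DMSO and 147, 116 and 117 CPM with ML141. With library totals 3 of the 18 fell and 5 rose.

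Of 23 tested assembly factors 9 fell (39.1%, against 27.7% of all genes) and 3 rose (13.0%, against 26.7%), with a median of -0.21. RBFA, which matures the small subunit, fell by 0.61, MTERF3 by 0.49 and MALSU1, which keeps the subunits apart during assembly, by 0.55. METTL15, a methyltransferase of the small-subunit RNA, rose by 2.16 on the log2 scale, from 7, 8 and 10 counts to 47, 58 and 40 counts, and YBEY, a nuclease, by 0.56. With library totals 4 of the 23 fell and 9 rose, and with upper-quartile factors 5 fell and 5 rose.

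Of 23 tested genes of mitochondrial transcription, RNA handling and DNA copying 13 fell (56.5%, against 27.7% of all genes). In this list 0 rose, against 26.7% of all genes, and the median was -0.44. With library totals 3 rose. PNPT1, an RNA-degrading enzyme, fell by 0.77, SLIRP, an RNA chaperone, by 1.23 and FASTKD1, an RNA-binding protein, by 0.71. Named for their roles after their values were seen, TFAM, which packages and transcribes mitochondrial DNA, fell by 0.52 and the mitochondrial RNA polymerase POLRMT had a log2 fold change of -0.14 that did not pass the test.

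Of 13 tested nuclear regulators 4 fell (30.8%, near the 27.7% of all genes) and 2 rose (15.4%, against 26.7%), with a median of -0.14. The coactivators PPARGC1B and PPRC1, which raise nuclear genes of mitochondria, fell by 1.04 and 0.91 and MYC by 0.64, and its partner MAX rose by 0.46 (edgeR adjusted p = 3.02e-05, 0.000125, 0.000153 and 0.000602). PPRC1 was at 121, 137 and 136 CPM with DMSO and 57.2, 86.3 and 65.6 CPM with ML141. Of the other factors whose letters were searched in the promoters, NRF1 had a log2 fold change of -0.10, GABPA of -0.23 and YY1 of -0.14, and none of these 3 passed the test.

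**Figure D4:**
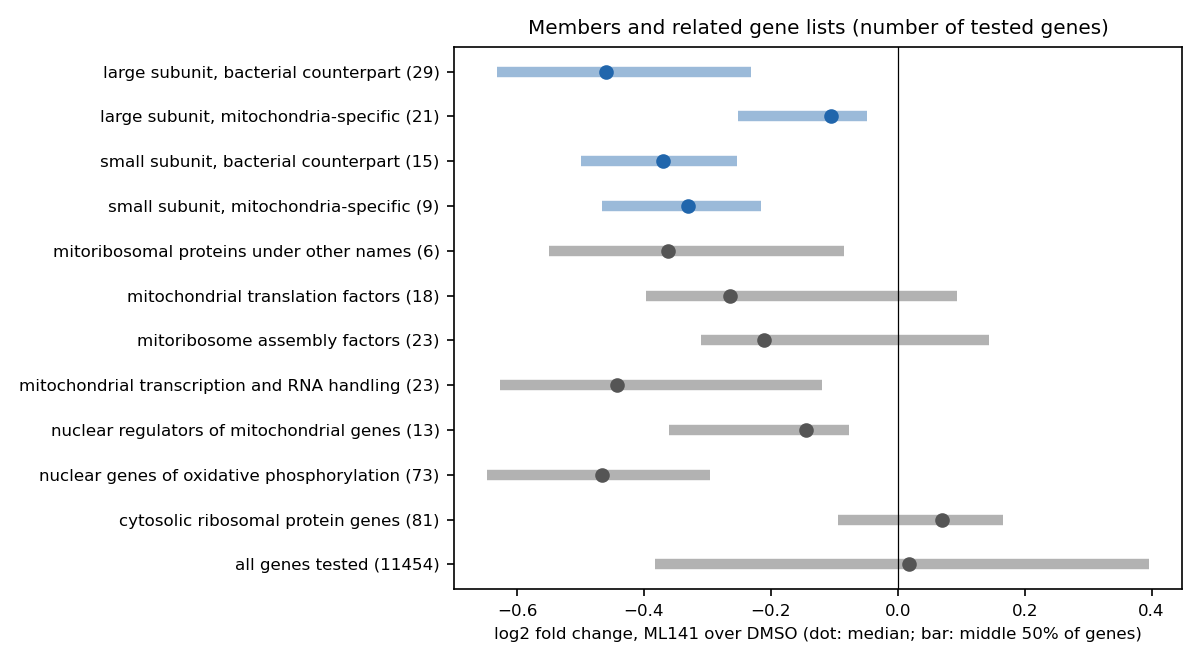
Median log2 fold change (ML141 over DMSO; dot) and the middle 50% of genes (bar) for the 4 role groups (blue), related lists and all genes tested (grey), with the number of tested genes in parentheses. The nuclear genes of oxidative phosphorylation (-0.47) and the large-subunit genes with a bacterial counterpart (-0.46) have the lowest medians, and the cytosolic ribosomal protein genes lie at 0.07.

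The cytosolic ribosome and the respiratory chain give points of reference. Of 81 tested genes of cytosolic ribosomal proteins 12 fell (14.8%) and 14 rose (17.3%), with a median of 0.07. Of 73 tested nuclear genes of oxidative phosphorylation 57 fell (78.1%) and 2 rose (2.74%), with a median of -0.47. Among all genes 27.7% fell and 26.7% rose, and among the mitoribosomal genes 54.7% and 1.33%. With library totals 5 cytosolic genes fell and 42 rose. These differences between lists were not tested.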

How the data were processed

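RNA of 3 DMSO and 3 ML141 cultures of REH, grouped by their titles, was sequenced with the TruSeq RNA v2 kit, per the labels' protocols. That kit does not mark strand. The authors deposited raw read counts, in whole numbers, by gene symbol. The submitters' processing notes name bcl2fastq 2.19, Trimmomatic, Bowtie2, Picard, featureCounts, DESeq2 and build hg38; which step each served, its settings and its gene annotation is not given in the sources used here. Per the file headers, the deposited table also holds a score (counts scaled per library and rounded by the authors), the fold change as a ratio, and the log2 fold change and p-value of the authors' comparison; only its calls are used, where named.

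Genes were kept with filterByExpr (minimum count 10, minimum total 15), scaled by TMM and compared with the quasi-likelihood F test of edgeR 4.0.16 (R 4.3.3, 2-sided) with group as the only term, and p was adjusted over 11454 genes at 0.05. SE is the log2 fold change over the square root of F. Intervals are at 95%. Replicates of a group differed by more than sampling noise (chi-square per degree of freedom 3.02 to 19.5), so none was merged. The labels call the experiments independent, and p-values measure the spread between these libraries.

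Gene positions, merged exon lengths and exon overlaps came from GENCODE release 29, matched by symbol, and promoter windows from RefSeq (GRCh38.p14). Mitochondrially encoded genes were not analysed here. The genes and lists were chosen with earlier results of these data known, and no list was tested as a set. MRPL55 was first placed with the bacterial counterparts and moved to the mitochondria-specific group after its value was known. In each role group the 4 genes that fell with the smallest p and the called genes with the largest fall and rise were named, then the 3 highest per kilobase, the extremes of those not called, untested genes, and in other lists up to 3 called genes in the commoner direction and 2 in the other. Alternatives were other scalings (DESeq2 size factors, upper-quartile factors, library totals), no or a stricter filter, the DESeq2 1.42.0 Wald test, limma-voom (limma 3.58.1), the replicate block, GC and length offsets (loess, span 0.5), a minimum fold change of 1.5, and leaving libraries out.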

Additional observations from a re-analysis of the deposited data

How the results depend on the processing

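The precision is limited by 3 libraries a group and, for MRPL23 and the untested genes, by few counts. Without 1 library or 1 replicate number, 24 to 47 genes fell and 0 to 1 rose. Of all genes 19.56% to 29.03% were lower in these fits. In the large subunit 13 to 21 genes with a bacterial counterpart fell and 3 to 7 of the mitochondria-specific ones. In the small subunit 5 to 12 genes with a counterpart fell and 3 to 7 mitochondria-specific ones. Library totals gave 27 lower and 4 higher, and upper-quartile factors 30 lower and 2 higher, with 20.1% and 22.8% of all genes lower. Under these 2 scalings (totals, then upper-quartile factors) the mitochondria-specific large-subunit genes gave 3 and 3 lower and the small-subunit genes with a counterpart 5 and 7, the assembly factors 4 and 5 lower with 9 and 5 higher, and the cytosolic ribosomal protein genes 5 and 7 lower with 42 and 32 higher. With totals the translation factors gave 3 lower and 5 higher, and the genes of transcription and RNA handling 3 higher. A minimum fold change of 1.5 left 3 lower, all of them large-subunit genes with a bacterial counterpart, and 0 in the other groups and 0 higher. GC and length offsets gave 41 lower and 3 higher, and the offsets with the replicate block 44 lower and 3 higher, the higher ones being MRPL10, MRPL45 and MRPS10. Of all genes 31.3% and 33.0% were lower in these 2 fits. DESeq2 size factors gave 41 lower, the DESeq2 Wald test 37 and limma-voom 40, with 27.6%, 26.6% and 27.8% of all genes lower. No filter and a stricter filter gave 36 each, with 18.9% and 27.5% of all genes lower. No called gene changed sign under any of the 20 alternatives, and 23 of the 41 stayed lower under all but the minimum fold change, MRPL18, MRPL17, MRPL12, MRPS15 and MRPS34 among them. Of the 33 genes not called, 18 changed the sign of their estimate with library totals and 7 with upper-quartile factors.

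Samples of the groups share replicate numbers and name endings, but nothing in the labels says that a number marks a shared experiment. Same-numbered libraries had correlated deviations of 0.374, 0.085 and 0.178, not all above 0.1, and DMSO replicate 3 correlated best with ML141 replicate 2 (0.291), so the numbers were not taken as pairs. With the replicate block 45 genes fell and 1 rose, and 1 gene of transcription and RNA handling rose. Over all genes 6979 were called in that fit, and 30.9% of all genes were lower.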
